A study of Mus musculus with 2 samples.

Results

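The peaks at 3 mouse loci, Lpar1, Gxylt2 and Nfkb1, were taken from a list of binding sites of Pax7-YFP in muscle stem cells, because many peaks of that list lay around these genes. A peak belonged to a locus when its summit, the base with the most fragments, lay inside the gene or within 150 kb of it in the GRCm38 build. This gave 23 of the 2977 peaks, with 8 at Lpar1, 9 at Gxylt2 and 6 at Nfkb1. The loci were chosen by their number of peaks, so the counts, densities and spacings below are descriptions of that choice and carry no test.

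The peaks come from chromatin immunoprecipitation with sequencing (ChIP-seq) of 1 library, set against 1 library of input DNA. Both libraries were made from untreated muscle stem cells, isolated by flow cytometry from C57BL/6 mice with a Pax7-YFP knock-in, and the antibody of the ChIP library was raised against green fluorescent protein (GFP), which also binds the yellow variant. The age, sex and number of mice are not given in the sources used here, and ChIP from cells without the tag was not analysed here. Peak positions, heights, folds and widths are the values the authors' peak caller gave, and the ChIP library held 10622111 tags and the input library 20429667 tags after filtering. With 1 library of each kind, no spread between replicates could be measured, and the intervals given in brackets after the pileup or fold of a single peak (exact Poisson, 95%) cover counting error in the ChIP library only. Brackets after a median give the lowest and the highest value. Reads amplified by PCR without molecular identifiers are not independent molecules.

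PAX7 is a transcription factor with a paired domain and a homeodomain that marks the stem cells of skeletal muscle and is needed to keep them. Its binding sites are known to lie mostly away from gene starts, often as several elements around a gene. Lpar1 encodes a receptor for lysophosphatidic acid (LPA), a lipid signal that acts through heterotrimeric G proteins on the cytoskeleton and growth. Gxylt2 encodes a glucoside xylosyltransferase, which extends the O-linked glucose on EGF repeats of proteins such as Notch. Nfkb1 encodes p105, the precursor of the p50 subunit of the transcription factor NF-kappaB, which carries signals of inflammation and stress to the nucleus.

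Only 1 of the 23 peaks overlapped a listed promoter, and that promoter was of a neighbour of Gxylt2. Windows of Lpar1 and Gxylt2 were read as well. None was listed for Nfkb1, so an overlap with its promoter could not be counted. The promoter windows came from RefSeq (GRCm38.p6) and ran from 250 bases before to 50 bases after a start site. Of the 2975 peaks on assembled chromosomes, 656 (22.1%) overlapped such a window. Peak 2 of the Gxylt2 locus, at chr6:100671215-100671408, covered 193 bases of the window of Shq1, whose product takes part in the assembly of small ribonucleoproteins. Its summit was 156 bp before the start site of Shq1, which is read from the minus strand. The Shq1 window, chr6:100671108-100671407, is shown 5′ to 3′ because it is the only sequence under a peak that could be read here, with the bases inside the peak in capitals.
Shq1 promoter window: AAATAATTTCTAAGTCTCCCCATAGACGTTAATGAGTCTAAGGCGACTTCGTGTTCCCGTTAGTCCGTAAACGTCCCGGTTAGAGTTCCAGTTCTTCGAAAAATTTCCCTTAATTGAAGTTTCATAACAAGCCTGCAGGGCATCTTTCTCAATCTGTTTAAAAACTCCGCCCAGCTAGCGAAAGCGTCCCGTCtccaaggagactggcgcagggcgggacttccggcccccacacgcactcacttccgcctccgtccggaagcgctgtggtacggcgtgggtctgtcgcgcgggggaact

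The start sites of Lpar1 are shown for contrast, since no peak touched them. The first listed window, chr4:58553442-58553741 on the minus strand, lay 10055 bp from the nearest summit when measured from its start site. Another listed window, chr4:58499354-58499653 on the same strand, marks a start inside the gene, and the nearest summit was 22263 bp from that start. Capitals mark matches to the homeodomain core TAAT or to the paired core GTCAC, on either strand.
Lpar1 first start: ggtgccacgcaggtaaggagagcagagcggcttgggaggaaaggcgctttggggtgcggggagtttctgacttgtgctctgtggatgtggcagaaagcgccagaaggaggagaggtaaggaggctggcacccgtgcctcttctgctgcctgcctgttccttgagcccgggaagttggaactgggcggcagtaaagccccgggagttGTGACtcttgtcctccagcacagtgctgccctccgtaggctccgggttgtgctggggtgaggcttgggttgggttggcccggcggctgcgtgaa
Lpar1 inner start: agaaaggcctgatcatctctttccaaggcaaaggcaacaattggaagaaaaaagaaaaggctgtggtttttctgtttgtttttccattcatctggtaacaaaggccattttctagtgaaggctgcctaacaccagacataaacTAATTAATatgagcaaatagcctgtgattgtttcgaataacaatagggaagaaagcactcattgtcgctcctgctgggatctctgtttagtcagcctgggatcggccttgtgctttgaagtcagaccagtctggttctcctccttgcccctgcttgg

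Short motifs of the kinds PAX7 can bind were common in promoters, and their matches here are descriptions only. The Shq1 bases inside the peak held 3 matches to TAAT and 0 to GTCAC, and so did the whole Shq1 window. Those bases were 44.0% GC, against a median of 52.7% over all listed windows. The first Lpar1 window held 1 match to GTCAC, and the inner window held 3 overlapping matches to TAAT. Among all 32851 listed windows, taken whole, 58.0% held at least 1 match to TAAT and 45.6% at least 1 to GTCAC. The Gxylt2 window, chr6:100704484-100704783, held 0 matches to either. Homeodomain cores facing each other, TAAT and ATTA with 2 or 3 bases between, were in 0 of these windows, against 0.390% and 0.487% of all windows. The AP-1 motif TGANTCA (7.81% of all windows) had 0 matches, and the E-box motif CANNTG (72.3% of all windows) had 2, both in the inner Lpar1 window. The sequences under the other 22 peaks were not analysed here.

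**Figure D1:**
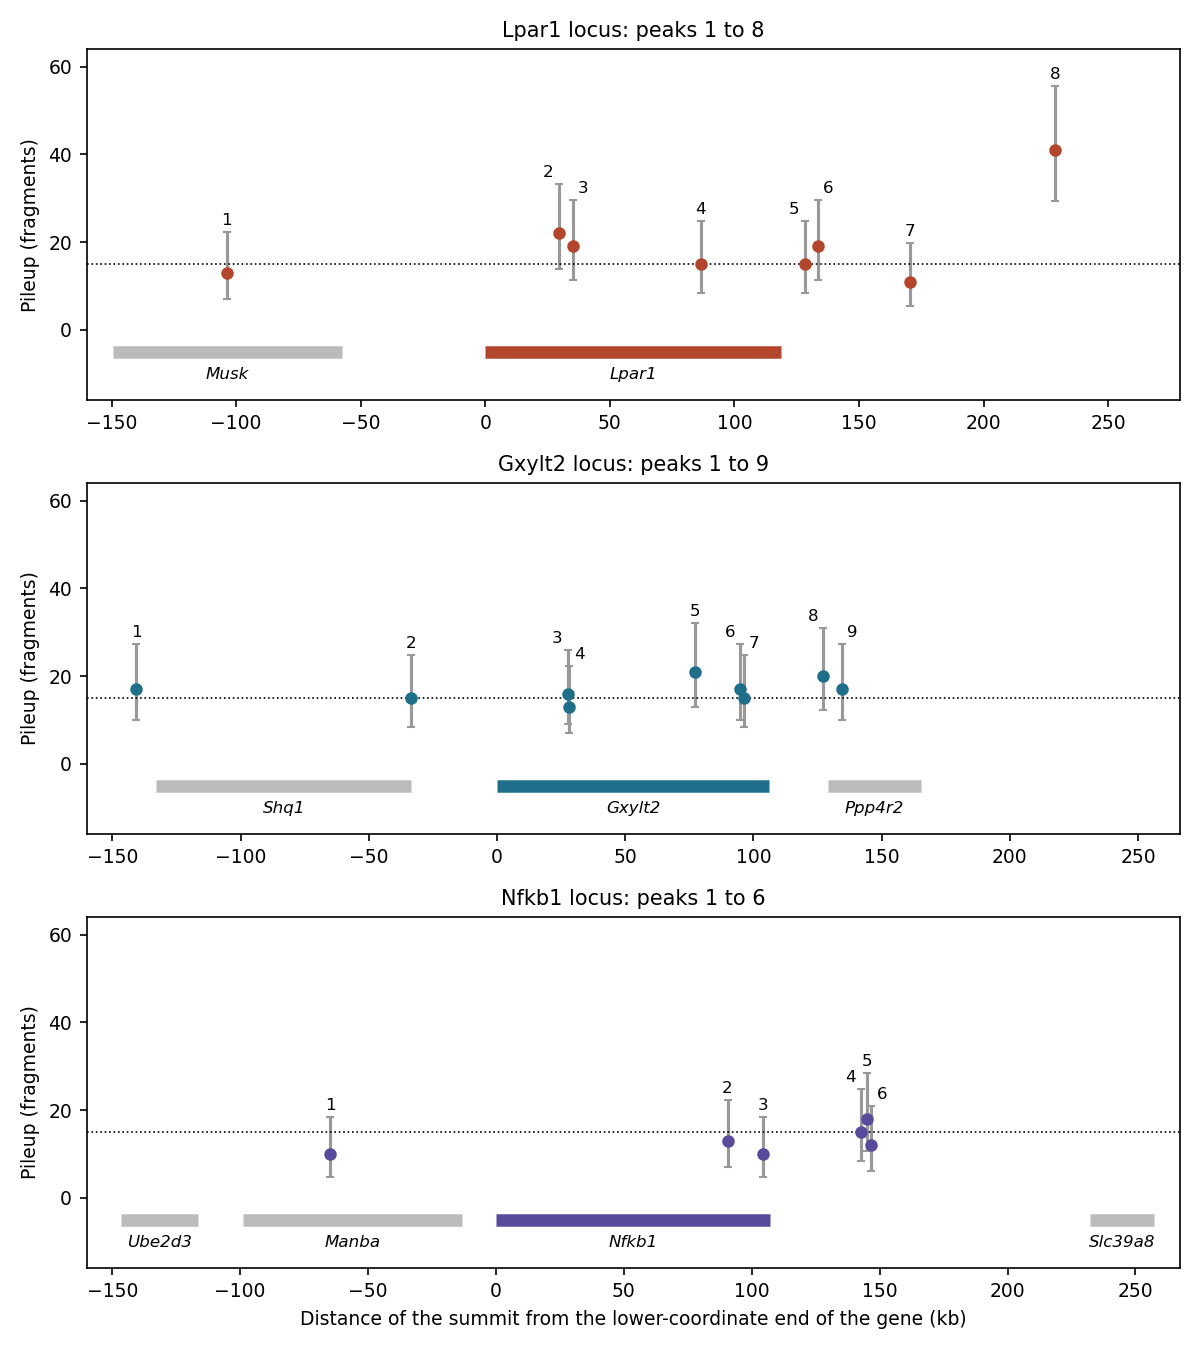
Peaks of the Lpar1, Gxylt2 and Nfkb1 loci, with the distance of each summit from the lower-coordinate end of the gene (kb) on the x axis and the pileup at the summit (fragments) on the y axis. Points are single peaks numbered by position, bars are exact Poisson 95% intervals, the dotted line is the median pileup of the whole list (15), coloured blocks are the 3 genes and grey blocks their protein-coding neighbours; peak 8 of Lpar1, at 41 fragments, stands above all others.

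At Lpar1, 3 of 8 peaks lay inside the gene, 4 lay beyond its higher-coordinate end, where transcription starts, and 1 lay inside the neighbouring gene Musk. The gene spans 118.8 kb, at chromosome 4, 58435252 to 58554027, and is read from the minus strand. Of all 21770 protein-coding genes, 8 (0.0367%) had at least 8 summits under the same rule and 68 (0.312%) had at least 3 inside their span. Such shares, here and below, are over genes of any length, and neighbouring genes can count the same peaks. From the first to the last summit the peaks stretched over 332 kb.

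The strongest peak of the 3 loci was the farthest from Lpar1. Peak 8, at chr4:58663728-58664022, had a pileup of 41 fragments in the ChIP library (29.4 to 55.6), against a scaled background of 0.977 fragments, the genome-wide expectation. Its fold enrichment, the pileup over the background with 1 added to each, was 21.2 (15.4 to 28.6), and only 5 other peaks of the whole list reached as much or more, so that it ranked 6 of 2977. It stood 110 kb before the first listed start of Lpar1 and 121 kb from the next protein-coding gene, the olfactory receptor gene Olfr267. No protein-coding gene held it. Its interval was the only one of the 23 that did not hold the list's median pileup of 15 fragments.

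Nearer to the Lpar1 start, 2 peaks stood about 5 kb apart. Peak 5, at chr4:58563475-58563681, had a pileup of 15 (8.40 to 24.7) and 8.09-fold enrichment (4.75 to 13.0), and it was 10.1 kb before the start. Peak 6, at chr4:58568593-58568907, had a pileup of 19 (11.4 to 29.7) and 10.1-fold enrichment (6.29 to 15.5), and it was 15.3 kb before the start. Their intervals overlapped, and the difference between them was not tested. Peak 7, at chr4:58605730-58605919, was the weakest of the locus with a pileup of 11 (5.49 to 19.7) and 6.07-fold enrichment (3.28 to 10.5), at 52.3 kb before the start.

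Inside Lpar1 the peaks formed a close pair in the part of the gene away from the start and a lone peak nearer to it. Peak 2, at chr4:58464536-58465000, was 465 bp wide, wider than 95.8% of the list, with a pileup of 22 (13.8 to 33.3) and 10.2-fold enrichment (6.57 to 15.2). Peak 3 followed at a distance of 5599 bp, at chr4:58470187-58470439, with a pileup of 19 (11.4 to 29.7) and 10.1-fold enrichment (6.29 to 15.5). Peak 4, at chr4:58521567-58521757, had a pileup of 15 (8.40 to 24.7) and 8.09-fold enrichment (4.75 to 13.0). It lay between the first start and the inner start, 22.3 kb from the inner one. The exons and introns of Lpar1 were not used here, so the place of these peaks is given by distance alone.

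Peak 1 of the Lpar1 window stood inside Musk, which encodes the receptor kinase that organises the neuromuscular junction. It lay at chr4:58331330-58331626, 104 kb from Lpar1 and 45.7 kb from the nearer end of Musk, with a pileup of 13 (6.92 to 22.2) and 6.99-fold enrichment (3.96 to 11.6). The gap of 133 kb between peaks 1 and 2 was the widest of the locus. The window of Musk itself held 6 summits, so neighbouring genes share peaks under this rule. The nearest peak beyond the limit of 150 kb was 159.6 kb from Lpar1, with a pileup of 17 and 8.82-fold enrichment (5.35 to 13.8), and it was 10.1 kb from the nearer end of Musk. On the other side the next peak was 431 kb away.

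At Gxylt2 the peaks were the most numerous of the 3 loci, and 5 of 9 lay inside the gene. The gene spans 106.2 kb, at chromosome 6, 100704672 to 100810888, and is read from the plus strand. At least 9 summits were found at 3 genes (0.0138%), and at least 5 inside the span at 10 genes (0.0459%). The other genes with 8 or more summits were Rad51b (12), Rnf41 (9), and Dlgap1, Nsmce2, Smarcc2 and Zfp366 (8 each), named after their counts were seen. The 9 peaks stood far from any other, since the next peaks outside the window were 1219 kb below and 6105 kb above the gene, while the whole list averaged 1 peak in 894 kb.

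The closest neighbours of the 3 loci were peaks 3 and 4 of Gxylt2, with summits 556 bp apart. Peak 3, at chr6:100731961-100732360, was 400 bp wide and had a pileup of 16 (9.15 to 26.0) and 8.57-fold enrichment (5.11 to 13.6). Peak 4, at chr6:100732438-100732938, was 501 bp wide and had a pileup of 13 (6.92 to 22.2) and 7.08-fold enrichment (4.01 to 11.8). Only 77 bases separated the intervals, and together they ran over 978 bp. Peak 4 was wider than 97.1% of the list although its pileup was below the list's median. In both peaks the summit sat well towards the higher coordinate, at 72.7% and 73.8% of the interval. The pair lay 27.5 and 28.1 kb after the start of Gxylt2.

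The strongest peak at Gxylt2 was peak 5, at chr6:100781754-100782107, with a pileup of 21 (13.0 to 32.1) and 11.1-fold enrichment (7.08 to 16.7), 77.2 kb after the start. It was 354 bp wide and the only Gxylt2 peak at 10-fold or more, a level that 5 of the 23 peaks and 14.4% of the list reached. Peaks 6 and 7 formed a pair near the far end of the gene, with summits 1347 bp apart, at chr6:100799396-100799658 and chr6:100800561-100800944. Their pileups were 17 (9.90 to 27.2) and 15 (8.40 to 24.7). Their folds were 7.03 (4.26 to 11.0) and 7.10 (4.17 to 11.4), so the order by pileup and by fold was not the same. The scaled input background was higher at peak 6, with 1.56 fragments, than at peak 7, with 1.25 fragments.

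The other 4 peaks of the Gxylt2 window were nearest to other genes. Peak 2, at the Shq1 start, had a pileup of 15 (8.40 to 24.7) and 8.09-fold enrichment (4.75 to 13.0), with the input background at its floor. Peak 1, at chr6:100563920-100564162, was 7.79 kb from the other end of Shq1, with a pileup of 17 (9.90 to 27.2) and 8.82-fold enrichment (5.35 to 13.8). It was the outermost peak within the limit, at 140.7 kb from Gxylt2. These peaks bracket Shq1, and none lay inside it.

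Peaks 8 and 9 flanked the start of Ppp4r2, which encodes a regulatory subunit of protein phosphatase 4. Peak 8, at chr6:100831797-100832011, was 1714 bp before that start, with a pileup of 20 (12.2 to 30.9) and 6.82-fold enrichment (4.29 to 10.4). It had the highest input background of the 23 peaks, 2.08 fragments after scaling and 4 before. Its pileup was the highest at Gxylt2 after that of peak 5, and its fold was the lowest. Peak 9, at chr6:100839015-100839192, was 5412 bp after the start and inside Ppp4r2, with a pileup of 17 (9.90 to 27.2) and 9.03-fold enrichment (5.47 to 14.2).

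At Nfkb1 there were 6 peaks, of which 3 stood in a tight group beside the gene. The gene spans 107.3 kb, at chromosome 3, 135584655 to 135691969. At least 6 summits were found at 60 genes (0.276%), and at least 2 inside the span at 207 genes (0.951%). The group beyond the higher-coordinate end held peaks 4, 5 and 6 within 3.90 kb from first to last summit, and they were 35.5, 37.8 and 39.4 kb from that end. The next protein-coding gene on their other side, the zinc transporter gene Slc39a8, was 85.5 kb from peak 6.

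Within that group the middle peak was the highest. Peak 5, at chr3:135729663-135729912, had a pileup of 18 (10.7 to 28.4) and 9.31-fold enrichment (5.72 to 14.4). Peak 4, at chr3:135727389-135727560, had a pileup of 15 (8.40 to 24.7) and 7.84-fold enrichment (4.61 to 12.6). Peak 6, at chr3:135731368-135731551, had a pileup of 12 (6.20 to 21.0) and 5.08-fold enrichment (2.81 to 8.58), with a scaled input background of 1.56 fragments. All 3 intervals overlapped. In the whole list, 10 runs of at least 3 peaks with neighbouring summits no more than 5 kb apart held 32 peaks, and this group was one of those runs.

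Inside Nfkb1 there were 2 peaks, both towards the higher-coordinate end. Peak 2, at chr3:135675124-135675295, had a pileup of 13 (6.92 to 22.2) and 7.08-fold enrichment (4.01 to 11.8), at 84.4% of the span counted from the lower-coordinate end. Peak 3, at chr3:135689146-135689317, was 2783 bp from the higher-coordinate end, with a pileup of 10 (4.80 to 18.4) and 5.55-fold enrichment (2.92 to 9.77). Peak 1 lay in Manba, the gene of the lysosomal beta-mannosidase, at chr3:135519768-135519950. It had a pileup of 10 (4.80 to 18.4) and 5.56-fold enrichment (2.93 to 9.81), and a gap of 155 kb separated it from peak 2. Peaks 1 and 3 shared the lowest pileup of the 23, and 0.941% of the list had a lower one. Beyond the window the next peaks were 1826 kb below and 1180 kb above the gene.

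**Figure D2:**
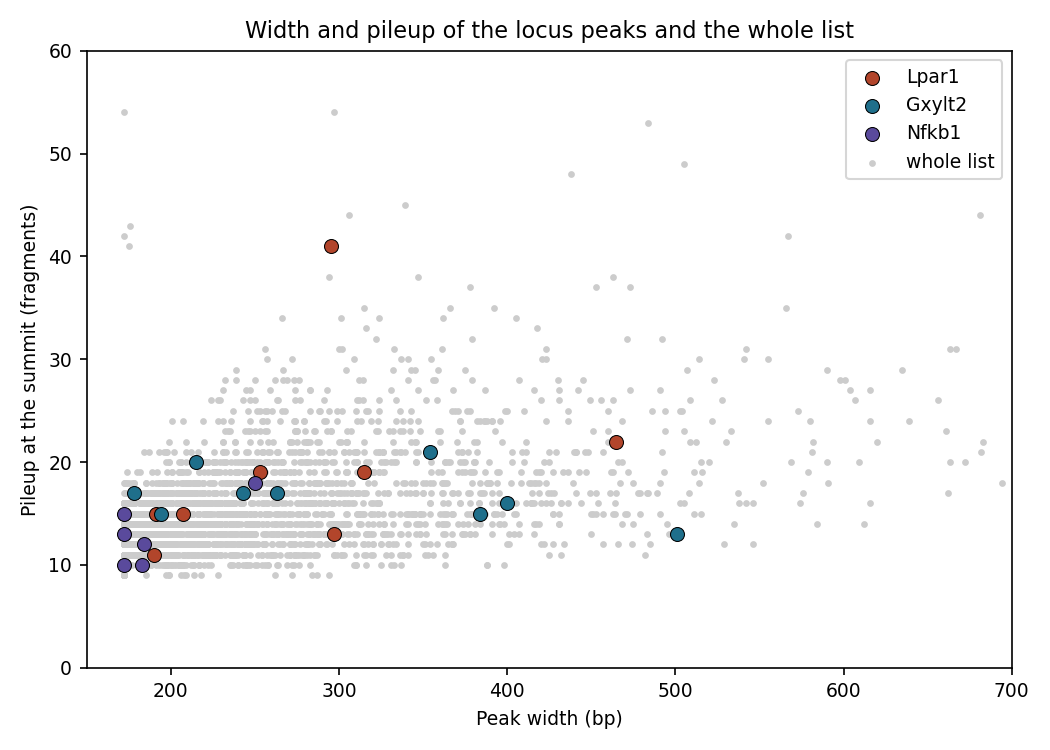
Peak width (bp) on the x axis and pileup at the summit (fragments) on the y axis for the peaks of Lpar1, Gxylt2 and Nfkb1 (coloured) and of the whole list (grey); 26 peaks of the list beyond 700 bp or 60 fragments are not drawn. Of the 6 Nfkb1 peaks, 5 are at most 184 bp wide and 15 fragments high, the Gxylt2 peaks reach 501 bp at 13 fragments, and the Lpar1 peaks include the highest at 41 fragments.

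Set side by side, the medians of width and height were alike at Lpar1 and Gxylt2 and lower at Nfkb1, and the ranges of single peaks overlapped. The median width was 274 bp at Lpar1 (190 to 465), 263 bp at Gxylt2 (178 to 501) and 177.5 bp at Nfkb1 (172 to 250), against 230 bp in the whole list. At Nfkb1, 3 of 6 peaks had the least width the list holds, 172 bp, which is also the fragment length the caller used, and 11.2% of the list had it. The median pileup was 17 at Lpar1 (11 to 41), 17 at Gxylt2 (13 to 21) and 12.5 at Nfkb1 (10 to 18), against 15 in the whole list. The median fold was 9.10 at Lpar1, 8.09 at Gxylt2 and 6.32 at Nfkb1, against 7.35 in the whole list. For all 23 peaks together the medians were 15 fragments, 243 bp and 8.09-fold, close to those of the list.

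The scaled background lay between 0.977 and 2.08 fragments at the 23 peaks. The scaled background was at its floor, the genome-wide expectation of 0.977 fragments, at 6 of 8 Lpar1 peaks, 3 of 9 Gxylt2 peaks and 2 of 6 Nfkb1 peaks, against 44.1% of the list. The highest value was 1.25 at Lpar1, 2.08 at Gxylt2 and 1.56 at Nfkb1. The part of the input in the differences between loci was not tested.

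**Figure D3:**
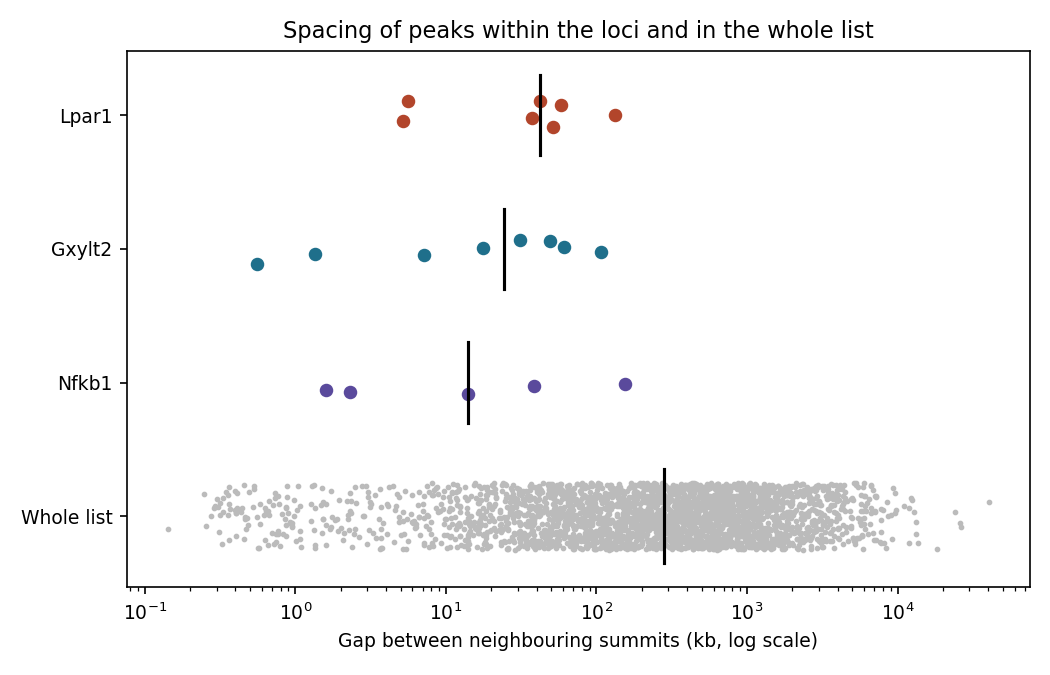
Gaps between neighbouring summits (kb, log scale) within the Lpar1, Gxylt2 and Nfkb1 loci and over the whole list, 1 point per gap; vertical offsets within a row are only for legibility. Black lines are medians, at 41.9 kb for Lpar1, 24.3 kb for Gxylt2, 14.0 kb for Nfkb1 and 283 kb for the list.

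The spacing was uneven in every locus, with close groups separated by long gaps. Between neighbouring summits the median gap was 41.9 kb at Lpar1 (5.20 to 133), 24.3 kb at Gxylt2 (0.556 to 107) and 14.0 kb at Nfkb1 (1.60 to 155), against 283 kb over all neighbours of the list. The locus medians leave out the gaps that lead out of a window, while that of the list takes every gap. This alone makes the locus medians shorter. Of the 23 peaks, 13 had another summit within 10 kb, against 14.6% of the list. They made up the 2 pairs at Lpar1, the 3 pairs at Gxylt2 and the group of 3 at Nfkb1. No gap at Lpar1 was below 5 kb. Density per 100 kb of window was 1.91 peaks at Lpar1, 2.22 at Gxylt2 and 1.47 at Nfkb1, against 0.112 over the list. Inside the genes it was 2.53 at Lpar1, 4.71 at Gxylt2 and 1.86 at Nfkb1.

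Most of the peaks lay more than 1000 bp from any end of a protein-coding gene. Of the 23 summits, 13 lay inside a protein-coding gene, against 49.5% of the list, and 10 of these 13 lay in Lpar1, Gxylt2 or Nfkb1 itself. Within 1000 bp of an end of a protein-coding gene there was 1 of 23 summits, the peak at Shq1, against 29.1% of the list. The nearest gene end belonged to the gene of the locus for 7 of 8 peaks at Lpar1, 5 of 9 at Gxylt2 and 5 of 6 at Nfkb1. The remaining peaks were nearest to Musk, Shq1, Ppp4r2 and Manba.

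**Figure D4:**
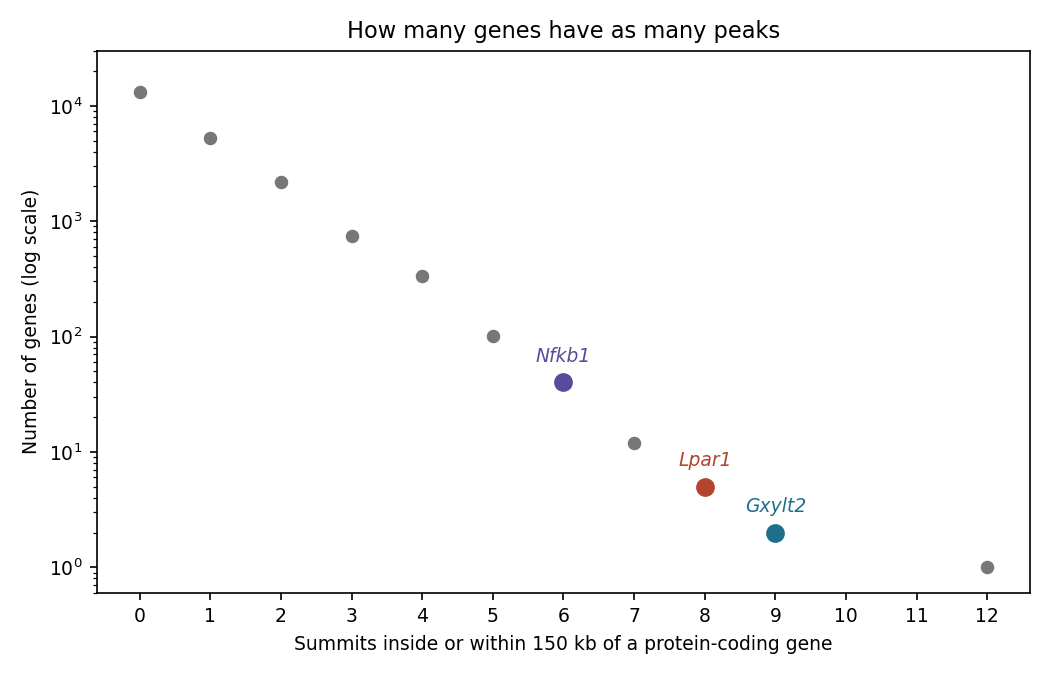
Number of protein-coding genes (log scale) by the number of summits inside or within 150 kb of the gene, over 21770 genes. Coloured points are the counts that hold Nfkb1 (6 summits, shared by 40 genes), Lpar1 (8 summits, 5 genes) and Gxylt2 (9 summits, 2 genes); 13106 genes had 0.

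Of the genes Prrx1 and Mdfic, also with several peaks, Prrx1 was close to Lpar1 in count and median gap, and Mdfic was more compact. Prrx1, a homeobox gene of mesenchymal cells, had 7 summits under the same rule, with 2 inside the gene, a median gap of 42.2 kb and a highest fold of 16.7. Mdfic, whose protein carries the inhibitor domain named for the MyoD family, had 5 summits, all inside the gene, with a median gap of 8.52 kb and a highest fold of 9.80. The Prrx1 peaks stretched over 234 kb and the Mdfic peaks over 62.4 kb, and those of Lpar1, Gxylt2 and Nfkb1 over 332, 275 and 212 kb. Both genes were chosen for their peaks too, and no difference was tested.

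Many other genes of LPA signalling had a peak in reach, but no other one had more than 4. Of 28 genes in the list, 18 (64.3%) had at least 1 summit inside or within 150 kb, against 39.8% of all protein-coding genes, and the median gene had 1 summit against 0. Within 50 kb it was 12 of 28 (42.9%) against 21.5%. Gene length and the crowding of genes, which bear on how many summits a window catches, were not matched. Enpp2, the gene of autotaxin that makes LPA outside the cell, had 1 peak, inside the gene, at 13.7-fold (9.10 to 19.8). Among the receptors, Lpar2 had 1 summit at 70.6 kb (12.6-fold, 8.28 to 18.6), Lpar3 1 at 66.8 kb and Lpar6 1 at 145 kb, while Lpar4 and Lpar5 had 0. Gna13, which encodes a G protein alpha subunit, had 4 summits, the highest at 13.2-fold (8.69 to 19.2) and 24.2 kb. The Hippo pathway coactivator genes Yap1 and Wwtr1 had 3 each, of which 1 and 2 were inside the gene. Other genes of the list, Plpp1, Plpp2, Gnai1, Rhoa, Rock1, Arhgef11, Srf and Ccn1, had 0.

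Of the genes for sugars on EGF repeats and for xylose transfer, 9 of 17 (52.9%) had a summit within 150 kb, against 39.8% of all genes, and within 50 kb 3 of 17 (17.6%), against 21.5%. Gxylt1, the close relative of Gxylt2, had 0, and so did Xxylt1, which adds the next xylose, and Poglut1, which adds the first glucose. Pofut1, whose enzyme puts fucose on Notch, had 1 at 80.1 kb (9.61-fold, 5.90 to 14.9). The fringe genes Lfng, Mfng and Rfng, which extend that fucose, had 1, 1 and 2 summits, with highest folds of 7.59, 6.07 and 7.59. Pofut2 had 3, with 1 inside the gene at 8.09-fold. Apart from Gxylt2, no gene of this list had more than 3.

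In the NF-kappaB pathway 21 of 30 genes (70.0%) had a summit within 150 kb, against 39.8% of all genes, and within 50 kb 13 of 30 (43.3%), against 21.5%. Among the subunits, Nfkb2 had 1 inside the gene at 6.37-fold (3.53 to 10.8), Rela and Relb had 1 each at 79.8 and 120 kb, and Rel had 0. Several genes for inhibitors had peaks, while Cyld, also of this kind, had 0. Nfkbia had 2 summits, the higher at 6.58-fold (3.64 to 11.1) and 22.9 kb, Nfkbie 1 at 0.608 kb, and Tnfaip3, the gene of the A20 ubiquitin-editing enzyme, 3 with a highest fold of 10.1 (6.29 to 15.5). Tnip1, whose product binds A20, had 6, as many as Nfkb1, with a highest fold of 10.5 (7.03 to 15.3). Bcl3 had 4 summits, 0 of them within 50 kb, with a highest fold of 13.6 (9.07 to 19.7). The kinase genes Ikbkb, Chuk, Ikbke, Tbk1 and Map3k7 had 0, and so did Ikbkg. Map3k14 had 2, both beyond 50 kb, and Ripk1 had 4, with 1 of them within 50 kb and a highest fold of 7.84 (4.61 to 12.6). All 3 lists include the gene of the locus itself. Without it the shares were 17 of 27, 8 of 16 and 20 of 29.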

How the data were processed

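A GFP ChIP library of Pax7-YFP muscle stem cells was compared with input DNA, 1 library each, grouped by antibody and title in the labels. GRCm38, bcl2fastq 2.16, HISAT2 2.10 and MACS2 2.1.1 are named in the submitters' processing notes, without roles. Peaks were called by the authors with MACS (2.1.1.20160309, q-value cutoff of 0.01), with tags of 50 bp, a fragment length of 172 bp and local windows of 1000 and 10000 bp, per the file headers. Pileup, as deposited, is the coverage signal at the summit in unscaled ChIP fragments. Fold, as deposited, divides pileup + 1 by background + 1. The background comes from the input scaled by 0.520, with the genome-wide expectation of 0.977 as its floor. It was recovered here from fold and pileup. The list also gives −log10 p and −log10 q as deposited, of which q was used in an alternative. Positions are 1-based.

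Summits were assigned to spans of 21770 RefSeq protein-coding genes (GRCm38.p6), leaving out rows on scaffolds or patches. Intervals are exact Poisson intervals (95%) of the pileup with the background held fixed. Nothing was tested between libraries or loci, because there is 1 library of each kind and the loci were picked on their peaks. Members and gene lists were chosen with earlier results of these data known. The named genes are those of the 3 loci, hosts and nearest genes of their peaks, genes overlapping the windows, list genes with a peak, Prrx1 and Mdfic; those with 8 or more summits and list genes with 0 were added after their values were seen. Since no genome was used here, sequences are RefSeq promoters only. Alternatives were windows of 0, 50 and 300 kb, peaks whose −log10 q reached the median, no top 1% by pileup, any overlap, merging below 500 bp and peak centres. The assignment was tested on simulated peaks. Python 3.11.15, pandas 2.3.3 and scipy 1.17.1 were used.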

Additional observations from a re-analysis of the deposited data

How the results depend on the processing

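Of 126 values recomputed under the alternatives, 108 stayed within 1.5 times the count or median reported, or, for a highest fold, within its Poisson interval. Most alternatives reuse the same peaks, so this says little about stability. The other 18 moved. Within 50 kb of the gene, Lpar1 had 5 peaks with a highest fold of 10.2 and a median gap of 23.7 kb, and the median gap of Nfkb1 was 8.16 kb. The O-glycosylation and xylosyltransferase list then had 3 genes with a peak and the NF-kappaB list 13, where all protein-coding genes stood at 21.5%. Inside the span only, Lpar1 had 3 peaks with a highest fold of 10.2, Gxylt2 had 5 with a median gap of 9.47 kb, and Nfkb1 had 2. The LPA, O-glycosylation and NF-kappaB lists then had 4, 2 and 4 genes, where all genes stood at 5.49%. When only peaks whose −log10 q reached the median counted, Nfkb1 had 2 peaks, 2.30 kb apart, the median gap of Gxylt2 was 41.0 kb and the NF-kappaB list had 11 genes, against 24.1% of all genes. The median gap of Gxylt2 was above that of Nfkb1 as reported and below it (14.0 kb) inside the span only. Merging peaks below 500 bp apart left Gxylt2 with 8. No paired analysis was possible because there is 1 library of each kind. A median pileup of 15 fragments limits every comparison of single peaks, and with no replicate or untagged control the reproducibility of any peak is unknown.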
